A study of Danio rerio with 36 samples.

Results

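The genes described here encode enzymes and complex subunits that write, erase or read marks on DNA and histones, or that move nucleosomes. They were chosen by symbol alone, as every gene in the count tables whose symbol falls in the kdm, kmt2, kmt5, setd, ezh, suz12, eed, hdac, sirt, dnmt, tet, smarc, arid, chd, brd or prmt series. The rule found 86 of 14781 gene symbols. By family these were 12 smarc, 12 kdm, 9 brd and 8 prmt genes, 7 each of the arid, dnmt, hdac and setd genes, 5 each of the chd and sirt genes, 5 core genes of Polycomb repressive complex 2 (ezh1, ezh2, eed, suz12a and suz12b), kmt2a and tet3. The symbols setd8a and setd8b correspond to kmt5aa and kmt5ab in a current RefSeq gene table. No read was counted for kdm2ba in any library, and prmt8b passed the filter on low counts in fibroblasts alone. The genes kdm6ba, chd4b, tet1 and tet2 were not analysed here.

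DNA in the nucleus is wrapped around histones, and enzymes called writers add methyl groups to the DNA or to histone lysines and arginines, while erasers remove methyl or acetyl groups. Readers bind such marks through domains such as the bromodomain, and remodellers use ATP to slide, evict or space nucleosomes. A cut zebrafish fin regrows through a blastema, a mass of dividing fibroblast-derived and osteoblast-derived cells beneath a wound epidermis. H3K27 demethylases of the kdm6b type and subunits of the NuRD complex, among them Chd4 and Hdac1, are known from earlier zebrafish work to act in that regrowth.

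RNA-seq of caudal fins was counted in 18 libraries, and times are days post amputation (dpa). All whole fins came from adults of the outbred Ekkwill strain aged 4 to 12 months (another protocol gives 3 to 12 months), pooled from 15 fish. Batch 1 held wild-type fins at 0 dpa (uninjured, 2 libraries) and at 4 dpa (2 libraries), and batch 2 held wild-type fins at 0 dpa (3 libraries) and 1 dpa (3 libraries). Batch 3 held fibroblasts at 0 dpa (2 libraries) and 4 dpa (2 libraries), each pooled from 75 fish, and 1 library each of wild-type fins and of fins with the LEN deletion at 0 and at 2 dpa. LEN is an enhancer linked to the leptin gene lepb. For the fibroblasts, the labels name a tph1b:mCherry-NTR transgene with ubi:switch in one protocol and tph1b:creER with ubi:switch in another. The second was given 4 µM tamoxifen for 12 h at 2 dpa and 2 months of regrowth, a scheme that marks descendants of tph1b-expressing blastema cells. A sort on mCherry is described for the chromatin accessibility samples. Nothing beyond the labels says that the pools of a group were separate, so p-values measure the spread between these pools.

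Gene counts per library ranged from 19427984 to 43871436. The names of the deposited data give the groups of batch 2 the other way round from the sample labels. The labels were followed, the groups are called labelled 0 dpa and labelled 1 dpa throughout, and every direction in batch 2 rests on those labels. With the groups exchanged, as those names have them, each batch 2 change keeps its size and p-value and turns its direction. Summed normalised counts (CPM, scaled to the library total) of 31 cell cycle genes were 595 to 716 at 0 dpa and 2970 to 3290 at 4 dpa in batch 1, 2550 to 2860 in the labelled 0 dpa and 435 to 593 in the labelled 1 dpa fins, and 480 to 490 at 0 dpa and 1890 to 2100 at 4 dpa in fibroblasts. Of these 31 genes, 30 rose in batch 1, 30 fell in batch 2 and 29 rose in fibroblasts. Markers of cell types also moved. The 18 epidermis markers summed to 173000 to 217000 CPM at 0 dpa and 53000 to 60100 at 4 dpa in batch 1, and the 18 fibroblast markers to 7820 to 8080 and 50100 to 58900. In fibroblast libraries the fibroblast markers summed to 82900 to 117000 CPM, and epidermis markers were present at 25400 to 50100 at 0 dpa and 8140 to 8470 at 4 dpa. There, 22 heat shock and dissociation-response genes summed to 154000 to 202000 CPM at 0 dpa and 41800 to 41900 at 4 dpa, against 5260 to 10900 in fins. All markers in these lists were detected except fbln1, which was at 0. The 14 leukocyte markers summed to 4600 to 5820 CPM at 0 dpa and 1690 to 1710 at 4 dpa in batch 1, and to 759 to 1030 in the labelled 0 dpa and 7230 to 8020 in the labelled 1 dpa fins. The 10 osteoblast markers summed to 2690 to 2810 CPM at 0 dpa and 20800 to 23000 at 4 dpa in batch 1, and to 911 to 1010 and 1870 to 2130 in the labelled 0 and labelled 1 dpa fins. From labelled 0 to labelled 1 dpa the 13 pigment cell markers went from 81.6 to 147 up to 318 to 377 CPM and the 12 nerve and glia markers from 98.0 to 105 up to 203 to 212 CPM, while in batch 1 the latter went from 175 to 193 down to 76.3 to 78.8 CPM and in fibroblasts from 130 to 143 down to 46.8 to 54.7 CPM (8 of 9 tested fell). The 12 endothelium markers summed to 127 to 131 CPM at 0 dpa and 250 to 288 CPM at 4 dpa in batch 1, where 11 rose, to 111 to 122 and 149 to 157 CPM in the labelled 0 and labelled 1 dpa fins, and to 92.2 to 122 and 85.1 to 91.4 CPM in fibroblasts. The part of cell division, cell composition or dissociation in the results below was not tested, and in bulk RNA fewer cells of a type and less RNA per cell cannot be told apart.

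Values below are CPM scaled by TMM among the libraries of 1 comparison, except marker sums and levels given on a common scale. A level so scaled is compared only within its own comparison and never between genes. Tests were edgeR quasi-likelihood F tests on all genes of the table, and a gene rose or fell where its adjusted p was under 0.05. In batch 1, 34 of 84 tested chromatin genes rose and 24 fell from 0 to 4 dpa, beside 32.5% of all tested genes that rose and 33.0% that fell (65.5% either way). Their median log2 fold change was 0.06, against -0.01 for all genes. From labelled 0 to labelled 1 dpa, 24 of 84 rose and 47 fell, with a background of 42.0% higher and 39.9% lower (81.9% either way), and the median was -0.32 against 0.06. In fibroblasts 23 of 85 rose and 20 fell from 0 to 4 dpa, with a background of 27.8% and 26.2% (53.9% either way), and the median was 0.10 against -0.0005. With library size alone in place of TMM the median of all genes shifted to 0.45 in batch 1, 0.16 in batch 2 and 0.32 in fibroblasts. Under that scaling 45 chromatin genes rose and 10 fell in batch 1, 28 rose and 45 fell in batch 2, and 37 rose and 11 fell in fibroblasts. Higher genes then made up 72.7% of all calls in batch 1, against 49.7% with TMM, and 67.7% against 51.5% in fibroblasts.

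**Figure D1:**
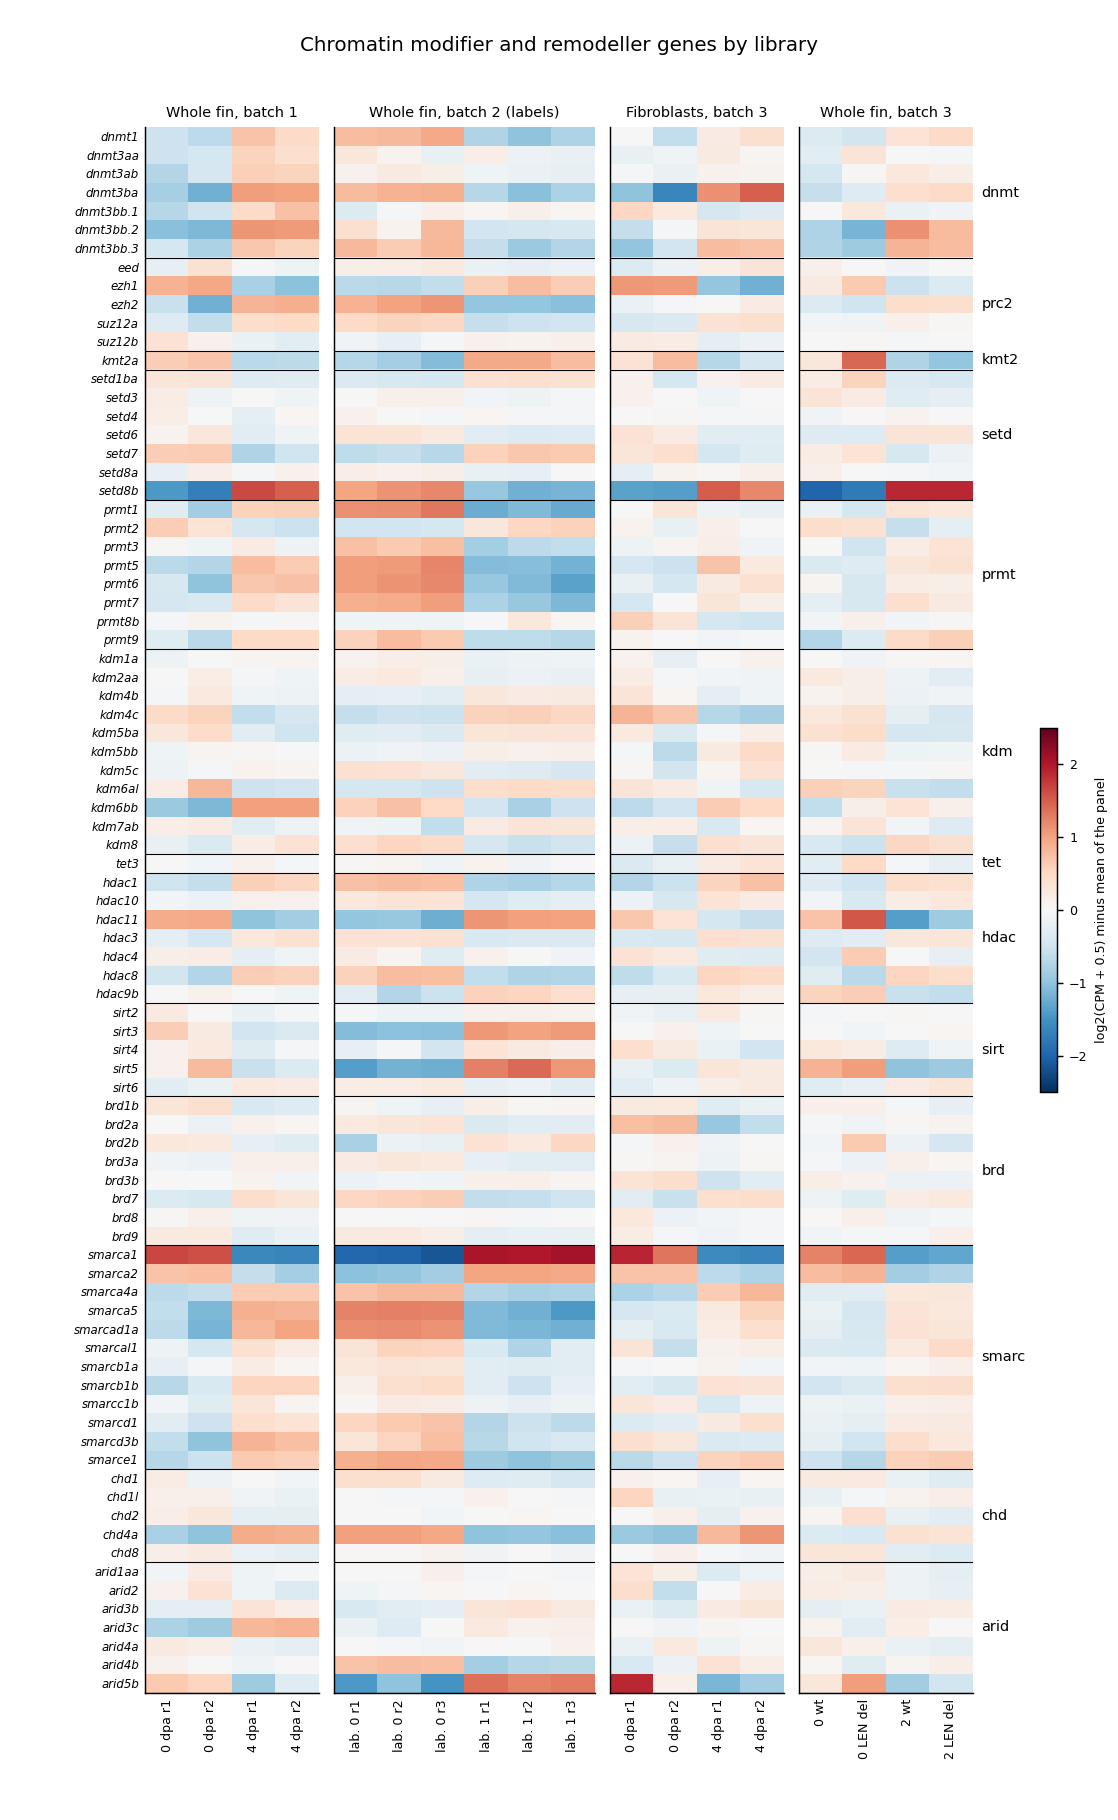
Colour gives log2(CPM + 0.5) of each of 84 chromatin genes (rows, by family) in each of the 18 libraries (columns), minus the gene's mean within its panel and cut at 2.5 either way. In batch 1 the genes drawn that were called higher lie on average to the red side at 4 dpa. In batch 2 the genes drawn that were called lower lie on average to the blue side in the labelled 1 dpa fins. Small changes are pale, such as that of setd8a in batch 2 (log2 fold change -0.28).

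**Figure D2:**
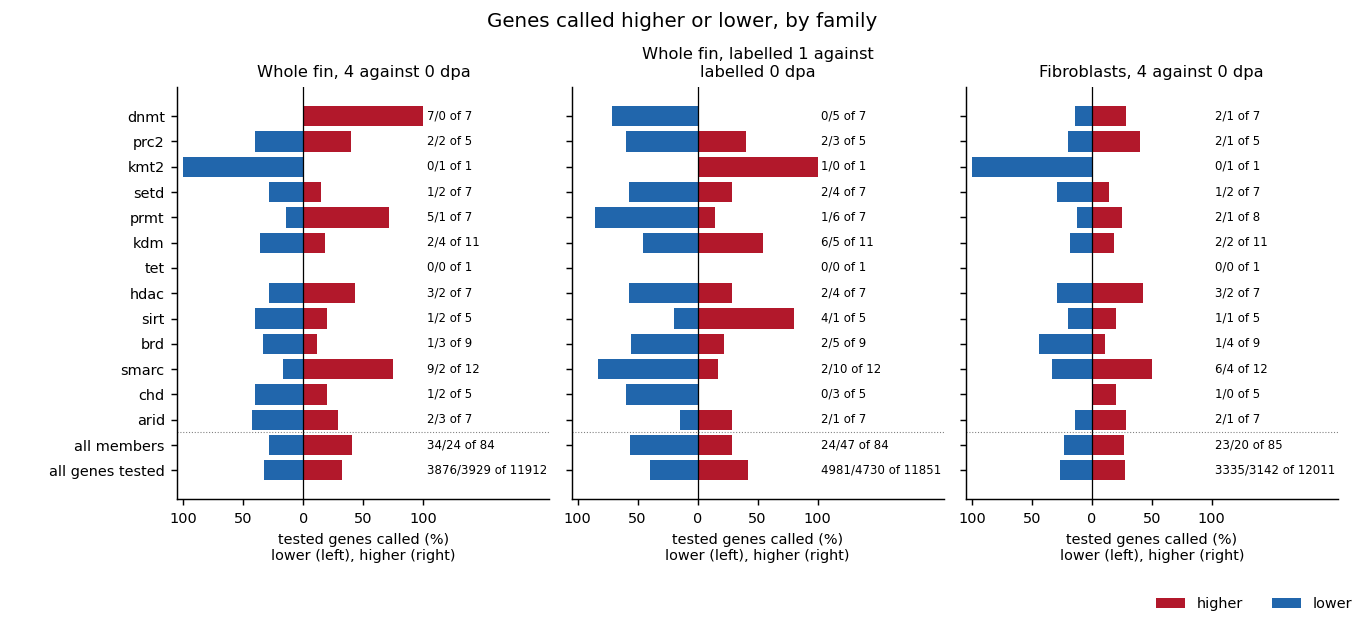
Bars give the percentage of tested genes of each family called higher (right, red) or lower (left, blue) by edgeR in the 3 replicated comparisons, on TMM scaling, with the counts higher and lower of those tested printed beside them. At 4 dpa in batch 1 the dnmt family was called higher in full (7 of 7). Of these, dnmt3bb.2 passed the filter on low counts only through the 4 dpa libraries. In the labelled 1 dpa fins 10 of 12 smarc genes were lower. With library size alone the balance turned from lower to higher for the brd, kdm, setd, sirt, chd and arid genes of batch 1 and for the setd genes of fibroblasts. Under that scaling 72.7% of the calls over all genes were higher in batch 1 and 67.7% in fibroblasts.

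DNA methyltransferases write 5-methylcytosine, Dnmt1 by copying it after replication and the Dnmt3 enzymes on unmethylated sites. All 7 dnmt genes rose in batch 1, beside 32.5% of all tested genes, with a median log2 fold change of 1.22. The de novo gene dnmt3ba stood at 18.4 and 14.0 CPM at 0 dpa and at 68.5 and 66.6 CPM at 4 dpa. Its log2 fold change was 2.06 ± 0.15 (SE; edgeR adjusted p = 3.79e-06). Both 4 dpa libraries were more than 3 times either 0 dpa library. The maintenance gene dnmt1 stood at 47.0 and 42.3 CPM, then 110 and 93.4 CPM, a log2 fold change of 1.19 ± 0.13 (edgeR adjusted p = 4.04e-05). The dnmt3a duplicates rose by a log2 fold change of 0.97 ± 0.13 for dnmt3aa (edgeR adjusted p = 0.000134) and 1.17 ± 0.14 for dnmt3ab (edgeR adjusted p = 8.66e-05). The dnmt3bb.2 gene had 6 and 6 counts at 0 dpa and 118 and 117 counts at 4 dpa. It passed the filter on low counts only through the 4 dpa libraries, where it is high. It is included in the 7, but its change is given as counts only. The groups did not overlap for any of these genes. How often groups of 2 or 3 libraries stay apart over all genes was not counted. Here and below, non-overlap therefore only describes the values.

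From labelled 0 to labelled 1 dpa 5 of the 7 dnmt genes fell, beside 39.9% of all tested genes. The 5 include dnmt3bb.2, which passed the filter on low counts only through the labelled 0 dpa libraries, where it is high. The level of dnmt1 was 100, 102 and 112 CPM in the labelled 0 dpa fins and 34.4, 28.6 and 33.8 CPM in the labelled 1 dpa fins, a log2 fold change of -1.70 ± 0.082 (edgeR adjusted p = 1.13e-07). The 3 libraries of each group stayed well apart. Neither dnmt3aa (-0.13, edgeR adjusted p = 0.431) nor dnmt3bb.1 (0.15, edgeR adjusted p = 0.23) passed the test. In fibroblasts dnmt3ba and dnmt3bb.3 rose. The level of dnmt3ba was 3.62 and 2.19 CPM at 0 dpa and 17.8 and 22.9 CPM at 4 dpa, a log2 fold change of 2.80 ± 0.28 (edgeR adjusted p = 4.87e-05), and that of dnmt3bb.3 was 1.61 and 2.53 CPM, then 6.62 and 6.35 CPM (1.65 ± 0.30, edgeR adjusted p = 0.00142). By contrast dnmt3bb.1 fell, from 47.7 and 39.6 to 24.1 and 26.4 CPM (-0.79 ± 0.16, edgeR adjusted p = 0.00275). That call ended without the first 4 dpa fibroblast library (adjusted p = 0.0646). For dnmt1 in fibroblasts the log2 fold change was 0.59 ± 0.23 (edgeR adjusted p = 0.0605). The dnmt3bb genes are close duplicates, so their counts depend on how shared reads were assigned.

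Polycomb repressive complex 2 methylates lysine 27 of histone H3. Ezh1 and Ezh2 are its alternative catalytic subunits, Suz12 holds the complex together and Eed binds the methylated product. In batch 1 ezh2 stood at 17.3 and 10.9 CPM at 0 dpa and at 46.5 and 48.2 CPM at 4 dpa, a log2 fold change of 1.75 ± 0.20 (edgeR adjusted p = 9.51e-05). The other catalytic gene, ezh1, stood at 66.7 and 72.1 CPM at 0 dpa and at 20.6 and 17.5 CPM at 4 dpa, a log2 fold change of -1.86 ± 0.13 (edgeR adjusted p = 3.35e-06). One catalytic gene rose and the other fell, without overlap of the groups in either. The duplicates of suz12 also parted, suz12a from 17.9 and 14.5 to 30.7 and 32.1 CPM (0.96 ± 0.14, edgeR adjusted p = 0.00027) and suz12b from 80.0 and 66.8 to 55.2 and 51.4 CPM (-0.46 ± 0.13, edgeR adjusted p = 0.01). The suz12b call ended without the second 4 dpa library (adjusted p = 0.104) and with library size alone (adjusted p = 0.938). The levels of eed overlapped between the groups (-0.21 ± 0.19, edgeR adjusted p = 0.355).

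In batch 2 ezh1, ezh2, suz12a and suz12b moved the other way by the labels. From labelled 0 to labelled 1 dpa ezh2 fell from 44.2, 48.3 and 51.8 CPM to 11.9, 11.9 and 11.2 CPM (-2.04 ± 0.075, edgeR adjusted p = 2.33e-08), and ezh1 rose from 27.8, 27.4 and 29.1 CPM to 68.1, 76.9 and 68.7 CPM (1.34 ± 0.063, edgeR adjusted p = 9.95e-08). The suz12a gene fell by 1.07 on the log2 scale, eed fell by 0.36, and suz12b rose by 0.21 (edgeR adjusted p = 0.00878, but 0.0518 without the third labelled 1 dpa library and 0.127 with all 6 replicated groups in 1 fit). In fibroblasts ezh2 differed from its behaviour in whole fins. It stood at 41.4 and 44.6 CPM at 0 dpa and at 46.1 and 53.7 CPM at 4 dpa, a log2 fold change of 0.21 ± 0.15 (edgeR adjusted p = 0.26), and the difference from the whole fin response was -1.50 ± 0.27 (edgeR adjusted p = 0.0016). The level of ezh1 fell in fibroblasts as in batch 1, from 111 and 110 to 26.5 and 22.3 CPM (-2.18 ± 0.16, edgeR adjusted p = 5.41e-06), and suz12a rose from 26.0 and 26.8 to 44.8 and 45.4 CPM (0.77 ± 0.15, edgeR adjusted p = 0.00175).

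**Figure D3:**
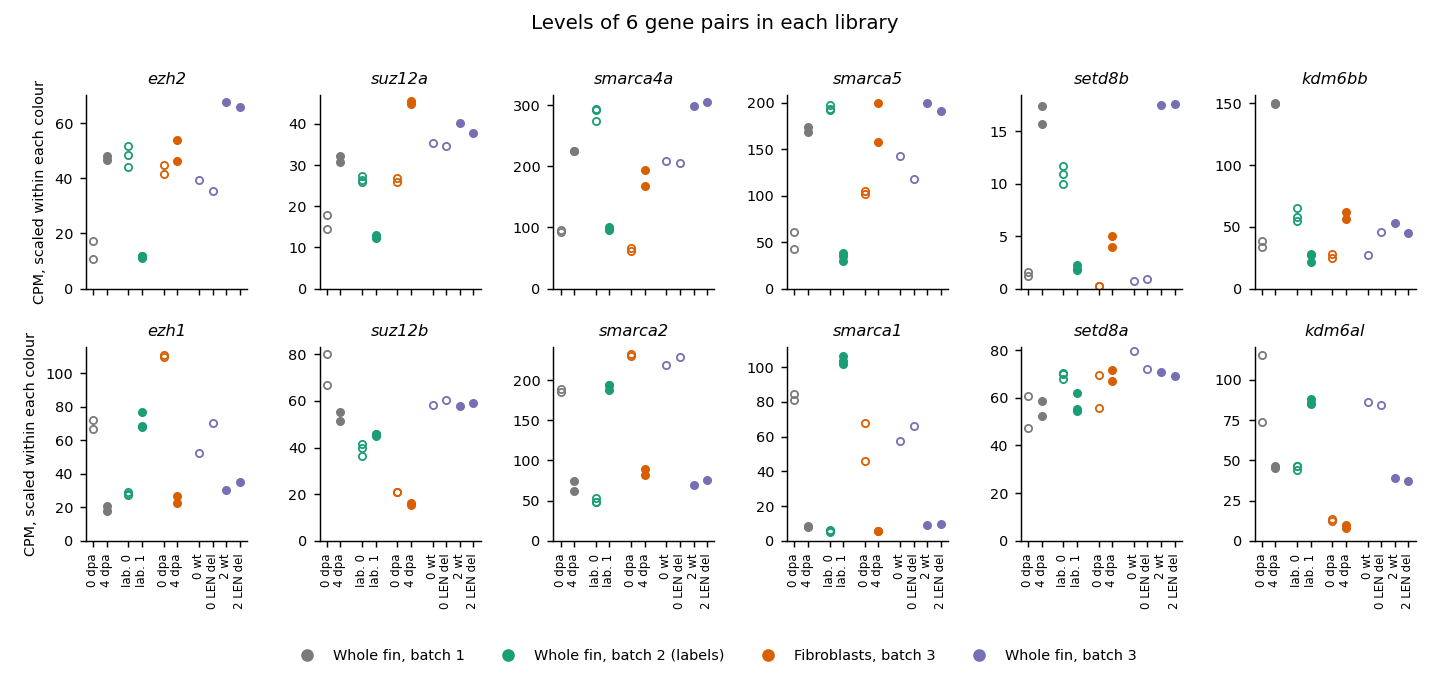
Points give CPM per library on linear axes from 0, scaled within each colour, for 6 pairs of related chromatin genes picked after their values were seen, 1 pair a column, open at 0 dpa (labelled 0 dpa in batch 2) and filled at the later day. In batch 1 ezh2 went from 17.3 and 10.9 to 46.5 and 48.2 CPM while ezh1 went from 66.7 and 72.1 to 20.6 and 17.5 CPM.

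Among the other histone lysine methyltransferases, setd8b had the largest increase of the chromatin genes tested in batch 1. Its product monomethylates lysine 20 of histone H4, a mark tied to the cell cycle. The level of setd8b was 1.61 and 1.25 CPM at 0 dpa and 17.4 and 15.7 CPM at 4 dpa, a log2 fold change of 3.54 ± 0.20 (edgeR adjusted p = 9.14e-07). It fell from labelled 0 to labelled 1 dpa, from 9.97, 10.9 and 11.7 CPM to 2.23, 1.78 and 1.86 CPM (-2.47 ± 0.12, edgeR adjusted p = 1.37e-07). In fibroblasts it was at 11 and 9 counts at 0 dpa and at 209 and 169 counts at 4 dpa. There it passed the filter on low counts only through the 4 dpa libraries, where it is high. It is included in the 23 genes called higher in fibroblasts, but its change there is given as counts only. Its duplicate setd8a did not pass the test in batch 1 (0.04 ± 0.14, edgeR adjusted p = 0.836) or fibroblasts (0.15 ± 0.16, edgeR adjusted p = 0.453) and fell by 0.28 in batch 2.

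Of the genes for enzymes that act on lysine 4 of histone H3, kmt2a encodes the Mll1 enzyme. Its level was 226 and 237 CPM at 0 dpa and 92.4 and 93.5 CPM at 4 dpa, a log2 fold change of -1.32 ± 0.12 (edgeR adjusted p = 1.13e-05). It rose by 1.78 ± 0.099 in batch 2 (edgeR adjusted p = 5.86e-07) and fell in fibroblasts by 1.17, from 37.6 and 50.3 to 17.6 and 21.6 CPM (edgeR adjusted p = 0.000839). Both days stayed apart in all 3 comparisons. The gene setd7, whose product monomethylates H3 lysine 4 and several non-histone proteins, went from 25.1 and 25.2 to 9.36 and 11.3 CPM in batch 1 (-1.28 ± 0.14, edgeR adjusted p = 5.06e-05). It rose by 1.31 in batch 2, and its fall in fibroblasts (-0.74 ± 0.16, edgeR adjusted p = 0.00371) ended without the first 4 dpa library (adjusted p = 0.0754) and with library size alone (adjusted p = 0.0633). The gene setd1ba, a catalytic subunit of COMPASS, went from 51.0 and 51.8 to 32.7 and 33.0 CPM in batch 1 (-0.65 ± 0.11, edgeR adjusted p = 0.000799, and 0.341 with library size alone). The actin methyltransferase gene setd3, and setd4, were not called in batch 1 or in fibroblasts.

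Protein arginine methyltransferases modify histones, splicing factors and many other proteins. In batch 1, 5 of 7 tested prmt genes rose and prmt2 fell, beside 32.5% and 33.0% of all tested genes. Their median log2 fold change was 1.04. The gene of the main asymmetric dimethylating enzyme, prmt1, went from 114 and 77.6 CPM at 0 dpa to 212 and 213 CPM at 4 dpa (1.15 ± 0.18, edgeR adjusted p = 0.00049). The symmetric dimethylating enzyme gene, prmt5, went from 12.9 and 12.3 to 36.0 and 32.7 CPM (1.45 ± 0.13, edgeR adjusted p = 1.33e-05). The coactivator gene prmt2 went the other way, from 6.38 and 5.19 to 2.85 and 2.58 CPM (-1.09 ± 0.21, edgeR adjusted p = 0.0013). Between the labelled groups of batch 2, 6 of 7 fell in the 1 dpa fins, beside 39.9% of all tested genes, and prmt2 rose by 1.03 ± 0.12. There prmt1 went from 289, 294 and 327 CPM to 55.0, 60.3 and 54.1 CPM (-2.42 ± 0.069, edgeR adjusted p = 6.47e-09). Among the largest decreases of batch 2 were also prmt6 (-2.43 ± 0.12, edgeR adjusted p = 1.2e-07) and prmt5 (-2.27 ± 0.072, edgeR adjusted p = 1.11e-08). For all 3 genes each labelled 1 dpa library was below every labelled 0 dpa library.

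In fibroblasts prmt5 and prmt6 rose. The level of prmt5 went from 11 and 9.99 to 24.5 and 17.7 CPM (1.01 ± 0.21, edgeR adjusted p = 0.00275), a call that ended without the first 4 dpa library (adjusted p = 0.0715). That of prmt6 went from 4.78 and 3.94 to 6.53 and 7.28 CPM (0.66 ± 0.25, edgeR adjusted p = 0.0458), a call that ended without the second 0 dpa library (adjusted p = 0.0655) or either 4 dpa library (0.157 and 0.261), with DESeq2 (0.0575) and in the block fit (0.0566). The prmt1 gene was at 458 and 566 CPM and then at 420 and 400 CPM, with no call (-0.32 ± 0.16, edgeR adjusted p = 0.123). The prmt8b gene was at 23 and 14 counts at 0 dpa and at 1 and 0 counts at 4 dpa in fibroblasts. It passed the filter on low counts only through the 0 dpa libraries, where it is high, and is included in the 20 genes called lower there, but its change is given as counts only.

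Histone demethylases of the kdm series were divided. In batch 1, 2 of 11 tested kdm genes rose and 4 fell (18.2% and 36.4%), beside 32.5% and 33.0% of all tested genes. With library size alone, where 72.7% of the calls over all genes were higher, 5 rose and 2 fell. The H3 lysine 27 demethylase gene kdm6bb went from 38.4 and 33.7 CPM at 0 dpa to 150 and 151 CPM at 4 dpa, a log2 fold change of 2.06 ± 0.12 (edgeR adjusted p = 1.19e-06). The related gene kdm6al, of the Utx type, went from 73.6 and 115 to 44.9 and 46.7 CPM (-1.04 ± 0.20, edgeR adjusted p = 0.00235). The H3 lysine 9 and 36 demethylase gene kdm4c went from 39.1 and 41.6 to 18 and 20.7 CPM (-1.06 ± 0.13, edgeR adjusted p = 8.14e-05). None of these 3 genes had overlapping groups. An H3 lysine 4 demethylase gene, kdm5ba, went from 154 and 174 to 105 and 89.2 CPM (-0.75 ± 0.13, edgeR adjusted p = 0.000743, and 0.14 with library size alone), while its duplicate kdm5bb was at 175 and 197, then 191 and 190 CPM (0.03 ± 0.12, edgeR adjusted p = 0.817).

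In batch 2, 6 of 11 kdm genes rose and 5 fell by the labels (54.5% and 45.5%), beside 42.0% and 39.9% of all tested genes. In that comparison kdm6bb fell from 58.0, 64.9 and 55.1 CPM to 27.8, 21.9 and 26.9 CPM (-1.22 ± 0.10, edgeR adjusted p = 6.7e-06), and kdm6al rose from 46.2, 46.2 and 43.9 CPM to 85.3, 88.3 and 85.8 CPM (0.93 ± 0.047, edgeR adjusted p = 1.55e-07). In fibroblasts kdm6bb rose from 25.0 and 28.2 to 62.0 and 56.6 CPM (1.16 ± 0.15, edgeR adjusted p = 0.00019) and kdm4c fell from 22.9 and 20.6 to 7.42 and 6.79 CPM (-1.62 ± 0.19, edgeR adjusted p = 8.31e-05). The fibroblast increase of kdm6bb was smaller than that of batch 1 by 0.86 ± 0.19 on the log2 scale (edgeR adjusted p = 0.00443). The Lsd1 gene kdm1a did not pass the test in batch 1 (0.14 ± 0.12, edgeR adjusted p = 0.325) or in fibroblasts (0.11 ± 0.15, edgeR adjusted p = 0.577) and fell by 0.27 in batch 2. The 5-methylcytosine dioxygenase gene tet3 was at 26.9 and 25.4, then 28.9 and 26.3 CPM in batch 1 (0.07 ± 0.13, edgeR adjusted p = 0.615), and was called in none of the 3 replicated comparisons.

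Histone deacetylase genes of class I rose where those of class II and IV were lower or not called in batch 1. The class I gene hdac1 went from 208 and 193 CPM at 0 dpa to 440 and 417 CPM at 4 dpa (1.1 ± 0.13, edgeR adjusted p = 8.06e-05). The class I genes hdac8 (1.23 ± 0.15, edgeR adjusted p = 6.98e-05) and hdac3 (0.65 ± 0.13, edgeR adjusted p = 0.00175) rose with it. The class IV gene hdac11 went from 9.48 and 9.61 to 2.11 and 2.37 CPM (-2.09 ± 0.18, edgeR adjusted p = 1.13e-05). The class II gene hdac4 fell by 0.33 (edgeR adjusted p = 0.0337), but was at 0.12 with library size alone, and was not called with DESeq2 (0.0883), with all 6 replicated groups in 1 fit (0.151), without the second 0 dpa library (0.0501) or without the first (0.289) or the second (0.114) 4 dpa library. Also of class II were hdac9b (-0.11, edgeR adjusted p = 0.535) and hdac10 (0.22, edgeR adjusted p = 0.149), the last of which acts on polyamines. In the labelled 1 dpa fins hdac1 was at 125, 120 and 128 CPM, against 352, 365 and 355 CPM in the labelled 0 dpa fins (-1.52 ± 0.048, edgeR adjusted p = 1.09e-08). There hdac11 rose from 1.22, 1.24 and 0.946 CPM to 6.74, 6.39 and 6.31 CPM (2.51 ± 0.14, edgeR adjusted p = 2.76e-07). In fibroblasts hdac1 rose from 157 and 180 to 385 and 435 CPM (1.29 ± 0.16, edgeR adjusted p = 0.000112). The fibroblast decrease of hdac11, from 3.62 and 2.78 to 1.39 and 1.24 CPM (-1.28 ± 0.35, edgeR adjusted p = 0.0114), was not called without the first (0.0878) or the second (0.12) 4 dpa library.

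The sirt genes encode NAD-dependent deacylases, and not all act on chromatin: Sirt3, Sirt4 and Sirt5 are mitochondrial enzymes and Sirt2 is largely cytoplasmic. In batch 1 the nuclear gene sirt6 rose and sirt3 and sirt5 fell. The level of sirt5 went from 26.3 and 42.6 CPM to 16.4 and 19.2 CPM (-0.95 ± 0.22, edgeR adjusted p = 0.00703) and that of sirt3 from 14.4 and 11 to 6.51 and 7.13 CPM (-0.89 ± 0.18, edgeR adjusted p = 0.00153). With library size alone sirt3 (adjusted p = 0.0975) and sirt5 (0.0525) lost their calls, so that sirt6 was the only sirt gene called. The sirt6 call (0.46 ± 0.14, edgeR adjusted p = 0.0167) ended without the first (0.107) or the second (0.0753) 4 dpa library. Larger changes of the mitochondrial genes were seen in batch 2. From labelled 0 to labelled 1 dpa sirt5 rose from 8.33, 9.61 and 9.36 CPM to 54.6, 60.8 and 47.8 CPM (2.58 ± 0.10, edgeR adjusted p = 3.52e-08), and sirt3 from 2.54, 2.68 and 2.65 CPM to 13.3, 12.6 and 13.0 CPM (2.30 ± 0.089, edgeR adjusted p = 3.06e-08). Each labelled 1 dpa library was above every labelled 0 dpa library for both genes.

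Bromodomain genes, the readers of acetylated lysines, were divided in batch 1, where brd7, a subunit gene of the PBAF remodeller, rose and brd1b and brd9 fell. With library size alone, where 72.7% of the calls over all genes were higher, the 4 called all rose. The brd9 call ended without the first 4 dpa library (adjusted p = 0.1). The level of brd7 went from 41.4 and 39.7 to 71.7 and 65.5 CPM (0.76 ± 0.12, edgeR adjusted p = 0.000356). The duplicates of the BET genes brd2 and brd3 parted in batch 2, from labelled 0 to labelled 1 dpa. There brd2a fell from 132, 139 and 143 CPM to 87.2, 92.7 and 93.3 CPM (-0.60 ± 0.051, edgeR adjusted p = 5.16e-06), while brd2b rose from 0.874, 1.69 and 1.62 CPM to 2.60, 2.35 and 2.93 CPM (0.91 ± 0.24, edgeR adjusted p = 0.00627). Likewise brd3a fell by 0.49 ± 0.047 (edgeR adjusted p = 1e-05) and brd3b rose by 0.21 ± 0.046 (edgeR adjusted p = 0.00227), a call that ended with all 6 replicated groups in 1 fit (0.114).

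The BET gene brd2a stood out in fibroblasts. It was at 862 and 893 CPM at 0 dpa and at 266 and 332 CPM at 4 dpa, a log2 fold change of -1.55 ± 0.17 (edgeR adjusted p = 5.79e-05). In batch 1 fins it was at 111 and 99.7, then 119 and 115 CPM (0.15 ± 0.12, edgeR adjusted p = 0.277), and the difference between the responses was -1.67 ± 0.22 (edgeR adjusted p = 0.000244). On a scale common to all 18 libraries brd2a was at 968 to 1000 CPM in 0 dpa fibroblasts, 274 to 355 CPM in 4 dpa fibroblasts and 90.6 to 155 CPM in fins. The heat shock and dissociation-response genes were high in the same libraries, and their part in the brd2a level was not tested. The brd8 gene was called in none of the 3 replicated comparisons.

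SWI/SNF (BAF) remodellers carry either Smarca4 (Brg1) or Smarca2 (Brm) as their ATPase, and ISWI remodellers carry Smarca5 (Snf2h) or Smarca1 (Snf2l). In batch 1, 9 of 12 smarc genes rose and 2, smarca1 and smarca2, fell, beside 32.5% and 33.0% of all tested genes. The level of smarca1 was 84.4 and 81.2 CPM at 0 dpa and 8.26 and 8.03 CPM at 4 dpa, a log2 fold change of -3.35 ± 0.13 (edgeR adjusted p = 2.13e-07). The other ISWI gene, smarca5, went from 60.7 and 42.9 to 174 and 169 CPM (1.73 ± 0.16, edgeR adjusted p = 2.23e-05). In BAF, smarca2 went from 186 and 189 to 74.4 and 62.1 CPM (-1.46 ± 0.13, edgeR adjusted p = 1.11e-05), while smarca4a went from 91.8 and 95.5 to 225 and 225 CPM (1.26 ± 0.12, edgeR adjusted p = 1.41e-05). For both kinds of complex 1 ATPase gene rose and the other fell, with no overlap between days. The shared BAF subunit gene smarce1 rose from 101 and 114 to 262 and 250 CPM (1.25 ± 0.12, edgeR adjusted p = 2.38e-05). The gene smarcad1a, of a remodeller that acts behind the replication fork in other species, rose from 19.6 and 13.5 to 55.8 and 62.0 CPM (1.84 ± 0.18, edgeR adjusted p = 2.4e-05). The BAF subunit gene smarcd3b rose from 3.99 and 2.93 to 11.9 and 11.1 CPM (1.74 ± 0.19, edgeR adjusted p = 4.44e-05).

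In batch 2 the directions by the labels were exchanged for each of these 7 smarc genes. There 10 of 12 smarc genes fell, beside 39.9% of all tested genes. The rise of smarca1, from 6.0, 5.83 and 5.30 CPM to 104, 102 and 107 CPM, was the largest of all chromatin genes in batch 2 by the labels (4.19 ± 0.065, edgeR adjusted p = 6.85e-10), and with the groups exchanged it is the largest fall. There smarca5 fell from 193, 197 and 194 CPM to 37.8, 35.0 and 29.8 CPM (-2.51 ± 0.083, edgeR adjusted p = 1.37e-08). The values within each group lay close together against a gap of more than 5-fold. The BAF ATPase genes moved by 1.94 ± 0.055 for smarca2 (edgeR adjusted p = 6.06e-09) and -1.55 ± 0.051 for smarca4a (edgeR adjusted p = 1.23e-08).

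In fibroblasts smarca1 fell from 68.0 and 45.8 CPM to 5.59 and 5.39 CPM (-3.37 ± 0.22, edgeR adjusted p = 5.34e-06) and smarca2 from 230 and 232 to 89.4 and 82.2 CPM (-1.43 ± 0.14, edgeR adjusted p = 3.22e-05). At the same time smarca4a rose from 62.1 and 66.7 to 168 and 193 CPM (1.49 ± 0.15, edgeR adjusted p = 3.29e-05) and smarca5 from 102 and 106 to 158 and 200 CPM (0.79 ± 0.16, edgeR adjusted p = 0.0023). The exchange of ATPase genes seen in whole fins was thus also measured in the fibroblast pools. By contrast smarcd3b fell from 19.0 and 17.6 to 11.1 and 11.3 CPM (-0.71 ± 0.18, edgeR adjusted p = 0.00773), a call that ended without the first (0.0909) or the second (0.0837) 4 dpa library and with library size alone (0.12). The smarcad1a rise (0.62 ± 0.16, edgeR adjusted p = 0.0106) ended without the second 4 dpa library (0.134).

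The chd gene with the largest change was chd4a, which encodes the ATPase of the NuRD complex. In batch 1 it went from 111 and 97.1 CPM to 371 and 360 CPM (1.82 ± 0.13, edgeR adjusted p = 3.91e-06). In batch 2 it went from a labelled 0 dpa level of 391, 392 and 375 CPM to a labelled 1 dpa level of 95, 97.5 and 93.3 CPM (-2.02 ± 0.048, edgeR adjusted p = 2.84e-09). In fibroblasts it went from 35.4 and 33.5 to 119 and 145 CPM (1.94 ± 0.16, edgeR adjusted p = 1.07e-05). In all 3 comparisons the higher group was more than 3 times the lower. The other chd genes changed little in batch 1, where chd2 (-0.46 ± 0.11) and chd8 (-0.41 ± 0.11) fell. Neither was called with library size alone, without the first 4 dpa library (0.0628 for chd2 and 0.0631 for chd8) or without the second (0.0588 and 0.136).

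Genes with an AT-rich interaction domain include subunits of BAF (arid1aa), PBAF (arid2) and the Sin3 deacetylase complex (arid4a, arid4b). In batch 1 arid3c went from 1.16 and 1.06 to 4.62 and 4.81 CPM (2.09 ± 0.24, edgeR adjusted p = 5.7e-05), and arid5b, which encodes a partner of an H3 lysine 9 demethylase, from 68.2 and 62.7 to 23.0 and 34.6 CPM (-1.18 ± 0.19, edgeR adjusted p = 0.000636). Counting all members, 2 of 7 arid genes rose and 3 fell, beside 32.5% and 33.0% of all tested genes. With library size alone, where 72.7% of the calls over all genes were higher, 2 rose and 1 fell. The arid2 call ended without the second 4 dpa library (0.165) and with all 6 replicated groups in 1 fit (0.206), the arid4a call without the first (0.0817) or the second (0.141) and in that fit (0.054), and that of arid3b, which rose, without the first (0.122). From labelled 0 to labelled 1 dpa arid5b rose from 16.2, 22.1 and 15.7 CPM to 117, 107 and 111 CPM (2.63 ± 0.14, edgeR adjusted p = 1.64e-06), and arid4b fell from 82.0, 85.2 and 84.3 CPM to 27.4, 30.1 and 30.8 CPM (-1.51 ± 0.057, edgeR adjusted p = 2.85e-08). In fibroblasts arid5b was at 14.5 and 3.97 CPM and then at 1.34 and 1.73 CPM (-2.59 ± 0.67, edgeR adjusted p = 0.0262). The 0 dpa fibroblast libraries differed from each other more than 3-fold in arid5b, and its call ended without the first (0.122) or the second (0.0994) 4 dpa library. The arid1aa gene was called in none of the 3 replicated comparisons.

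Read across the 3 replicated comparisons, 18 genes rose in batch 1, fell from labelled 0 to labelled 1 dpa and rose in fibroblasts, 21.4% of the 84 chromatin genes tested in all 3, beside 15.6% of all such genes. These were brd7, chd4a, dnmt3ba, dnmt3bb.3, hdac1, hdac3, hdac8, kdm6bb, prmt5, prmt6, setd8b, smarca4a, smarca5, smarcad1a, smarcb1b, smarcd1, smarce1 and suz12a. Of these, setd8b passed the filter on low counts in fibroblasts only through the 4 dpa libraries, where it is high. The reverse pattern was found for 9 genes (10.7%, beside 12.9% of all genes), arid5b, ezh1, hdac11, kdm4c, kdm6al, kmt2a, setd7, smarca1 and smarca2. A further 10 genes rose in batch 1, fell in batch 2 and were not called in fibroblasts (11.9%, beside 7.42%), among them ezh2, dnmt1 and prmt1. They include dnmt3bb.2, which passed the filter on low counts in batches 1 and 2 only through the group where it is high. With the batch 2 groups exchanged, the 18 genes would be higher and the 9 lower in all 3 comparisons. Leaving out 1 fibroblast library leaves 1 in its group, and several fibroblast calls behind these patterns were then lost. Among them were those given above for arid5b, hdac11, prmt5, prmt6, setd7 and smarcad1a. That of kdm6al (edgeR adjusted p = 0.0491) ended without the first (0.121) or the second (0.352) 4 dpa library, without the expression filter (0.0562) and with library size alone (0.443). The fibroblast call of smarcb1b ended without the first (0.0635) or the second (0.0503) 4 dpa library, and that of smarcd1 without the second (0.0739). Of the 34 genes that rose in batch 1, 30 (88.2%) were among the 47 that fell in batch 2, of which they made up 63.8%, beside 75.1% and 59.5% over all genes, while 1 (2.94%) also rose there by the labels, beside 13.6% over all genes. Of the 24 that fell in batch 1, 16 (66.7%) were among the 24 that rose in batch 2, of which they also made up 66.7%, beside 78.1% and 62.9% over all genes, while 3 (12.5%) also fell there, beside 7.24% over all genes. With the batch 2 groups exchanged, the 30 and the 16 are the genes that moved the same way in both batches, and the 1 and the 3 those that moved the opposite way. Of the 34, 19 (55.9%) were among the 23 that rose in fibroblasts, of which they made up 82.6%, beside 55.5% and 64.2% over all genes. Of the 24 that fell in batch 1, 12 (50%) also fell in fibroblasts, where they made up 63.2% of the 19 tested in both that fell, beside 49.5% and 61.0% over all genes. The arid3b gene was called higher in all 3 comparisons. Its fibroblast call ended without the first (0.12) or the second (0.201) 4 dpa library, and its batch 1 call without the first 4 dpa library (0.122).

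The fibroblast response was set against the whole fin response by testing the difference of the 2 log2 fold changes. The response of 7 of 85 chromatin genes was higher in fibroblasts and that of 15 was lower, beside 18.8% and 17.4% of all tested genes. Among the dnmt genes 4 of 7 were lower in fibroblasts, and among the smarc genes 4 of 12. Leaving out genes that averaged under 2 CPM, the largest decreases were those of smarcd3b (-2.41 ± 0.26, edgeR adjusted p = 7.11e-05), dnmt3bb.1 (-1.97 ± 0.23, edgeR adjusted p = 0.000105) and arid3c (-1.95 ± 0.31, edgeR adjusted p = 0.000794), followed by brd2a and ezh2. Of these, arid3c was at 5.35 and 4.97 CPM and then 5.64 and 5.41 CPM in fibroblasts (0.10 ± 0.24, edgeR adjusted p = 0.752), where whole fins rose 4-fold. The prmt1 difference was -1.44 ± 0.27 (edgeR adjusted p = 0.00194). Under the same limit the largest increases were those of sirt5 (1.54 ± 0.31, edgeR adjusted p = 0.00302), prmt2 (1.27 ± 0.38, edgeR adjusted p = 0.0244), setd1ba (1.00 ± 0.25, edgeR adjusted p = 0.0103), kdm5ba (0.89 ± 0.27, edgeR adjusted p = 0.0276) and sirt3 (0.80 ± 0.28, edgeR adjusted p = 0.0432). All 5 of these genes fell in whole fins, and in fibroblasts sirt5 went from 7.83 and 6.91 to 11 and 10.6 CPM (0.55 ± 0.21, edgeR adjusted p = 0.0478). That fibroblast call of sirt5 ended without the second 0 dpa (0.0642), the first 4 dpa (0.24) or the second 4 dpa (0.193) fibroblast library, with DESeq2 (0.0562), with all 6 replicated groups in 1 fit (0.0544) and in the block fit (0.0568), while its difference was called under every alternative run.

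Some of these differences were lost when 1 library was left out. Among the decreases, that of dnmt3aa (edgeR adjusted p = 0.0386) ended in the block fit (0.0622), without the first 0 dpa fin (0.0933), either 4 dpa fin (0.175 and 0.0798) or either 4 dpa fibroblast library (0.0561 and 0.118). The smarca5 decrease (edgeR adjusted p = 0.0151) ended without the first 4 dpa fin (0.0537) or the first 4 dpa fibroblast library (0.0772), and so did that of smarcc1b (edgeR adjusted p = 0.013, then 0.0771 and 0.0611). The sirt3 difference was not called without any 1 of the 8 libraries (adjusted p from 0.066 to 0.162), nor with RLE scaling (0.0615), without the expression filter (0.0539), with DESeq2 (0.105) or in the block fit (0.0582), and the setd1ba difference was not called without the second 0 dpa fin (0.0757). The prmt2 difference ended without either 0 dpa fin (0.0915 and 0.0606), either 4 dpa fin (0.0731 and 0.0999), the second 0 dpa fibroblast library (0.0725) or the first 4 dpa one (0.0782). That of kdm5ba ended without either 0 dpa fin (0.0513 and 0.19), the second 4 dpa fin (0.111), the second 0 dpa fibroblast library (0.12) or either 4 dpa one (0.0544 and 0.111). With library size alone only the sirt5 increase was called, where 1489 of all 12442 tested genes had a higher response in fibroblasts. Leaving out 1 library leaves 1 in its group. The numbers of increases and decreases called then varied, as they did over all genes. In the fibroblast comparison itself, leaving out either 4 dpa library leaves 1 in that group. Fewer chromatin genes were then called, as were fewer of all genes. Batch, cell preparation and, by 1 protocol, an earlier regrowth differ between the responses and cannot be told apart from cell type.

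**Figure D4:**
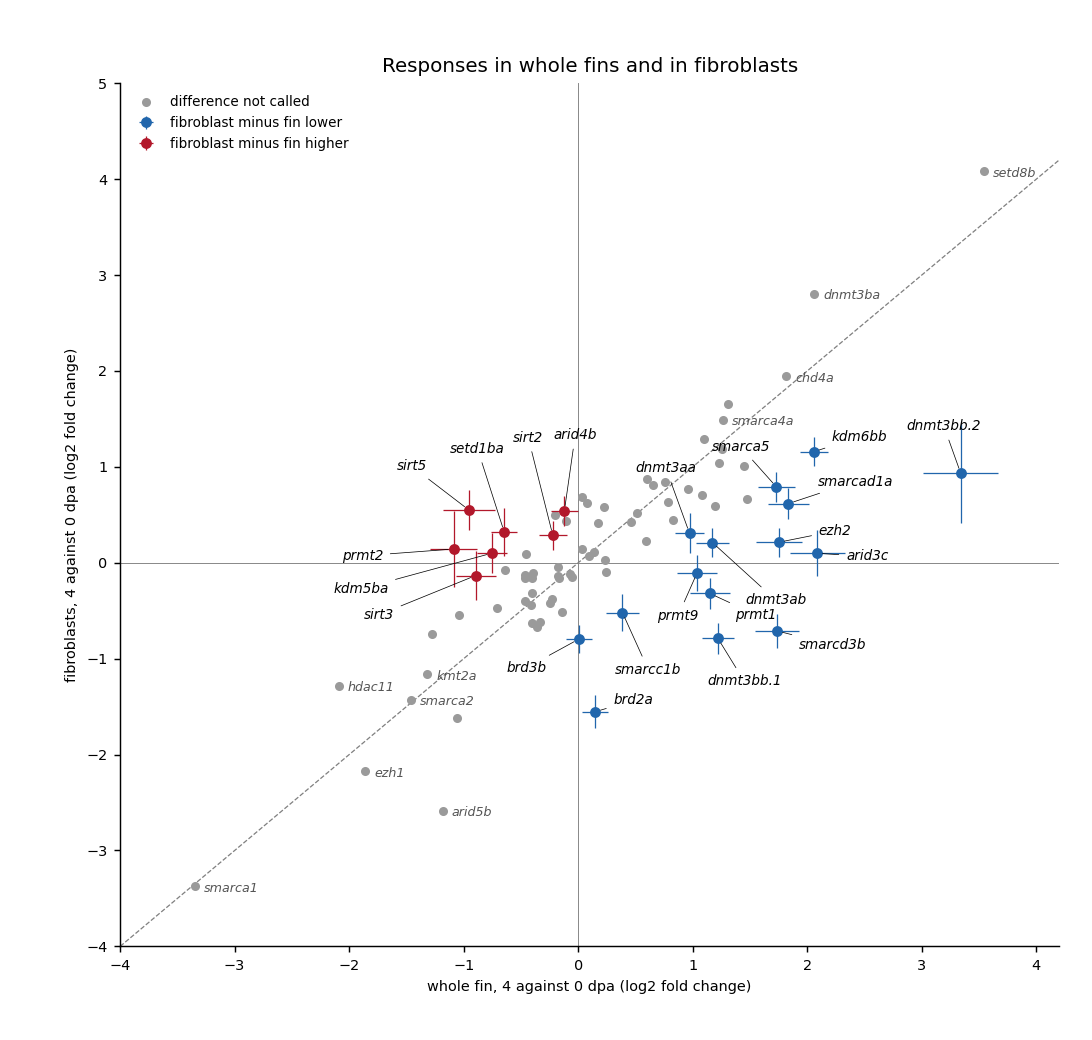
Points give the log2 fold change at 4 against 0 dpa in whole fins (x) and in fibroblasts (y) for the chromatin genes tested in both, with SE bars and colour where the difference was called (15 lower in fibroblasts, 7 higher) and a dashed line of equal response. The genes chd4a, smarca2 and smarca1 lie near the line, while smarcd3b, dnmt3bb.1, arid3c, brd2a and ezh2 lie below it.

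At 0 dpa the levels also differed between fibroblasts and fins. On the scale common to all 18 libraries, both 0 dpa fibroblast libraries were above the 0 dpa fins of batches 1 and 3 for 25 of 86 chromatin genes (29.1%) and below them for 28 (32.6%), beside 36.1% and 35.7% of all genes above 1 CPM on average. The 86 were not held to that limit. They include kdm2ba, without reads, and prmt8b, which has low counts and is among the 25. Those above included ezh1, ezh2, prmt1, hdac4, smarca2, smarcd3b and all 4 brd2 and brd3 genes. Those below included dnmt1, dnmt3ba, chd4a, chd8, smarca4a and kdm6al. For chd8 the fibroblast levels were 7.18 to 7.85 CPM at 0 dpa, against 120 to 124 CPM in batch 1 and 139 to 140 CPM in batch 3 fins. For chd4a they were 37.6 to 39.8 CPM, against 91.9 to 105 CPM in batch 1 and 201 to 211 CPM in batch 3 fins. The 0 dpa fins of batches 1 and 3 thus also differed from each other in chd4a. The heat shock and dissociation-response genes summed to 154000 to 202000 CPM in these fibroblasts and to 6060 to 7550 CPM in these fins. Their part in the levels was not tested. Cell preparation and, by 1 protocol, an earlier regrowth also differ and cannot be told apart from cell type.

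At 2 dpa, with 1 library of each genotype, a gene counted as changed where its CPM ratio was at least 1.5-fold the same way in wild-type and in LEN deletion fins, among genes with at least 50 counts in 1 of the 4 libraries. There is no replicate check on these ratios, and their 95% intervals cover counting error only. By that measure 20 of 83 chromatin genes were higher at 2 dpa and 11 were lower, beside 19.8% and 20.3% of all genes. At 2-fold these counts were 4 and 8, beside 10.2% and 12.3% of all genes. The largest ratio was that of setd8b, at 0.73 CPM at 0 dpa and 17.5 CPM at 2 dpa in wild type and at 0.927 and 17.6 CPM in LEN deletion fins. Its log2 ratio was 4.45 (3.91 to 5.35) in wild type and 4.14 (3.67 to 4.89) in the deletion. Next came dnmt3bb.2 (2.40 and 2.69) and dnmt3bb.3 (1.68 and 1.75). At 0 dpa setd8b and dnmt3bb.2 were under 50 counts in both genotypes, so they met the count limit only through the 2 dpa libraries. Of the decreases, smarca1 went from 57.6 to 9.01 CPM in wild type and from 66.2 to 9.58 CPM in the deletion, log2 ratios of -2.67 (-2.87 to -2.48) and -2.78 (-2.98 to -2.60). The ratios of hdac11 were -2.60 and -2.78, and those of sirt5 -1.91 and -1.98. At 2 dpa hdac11 was under 50 counts in both genotypes, so it met the count limit only through the 0 dpa libraries.

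Of the 20 genes higher at 2 dpa, 19 (95%) were among the 34 that rose at 4 dpa in batch 1, of which they made up 55.9%, beside 85.0% and 50.8% over all genes. Of the 11 lower, 10 (90.9%) were among the 24 that fell (41.7% of these), beside 82.3% and 49.7% over all genes. All 20 fell and all 11 rose from labelled 0 to labelled 1 dpa, beside 82.3% and 88.6% over all genes, so that with the batch 2 groups exchanged all moved the same way as at 2 dpa. The genes of the ATPase and catalytic pairs had log2 ratios of opposite sign, but only ezh1 and ezh2 met the 1.5-fold measure on both sides. The log2 ratios were 0.78 and 0.89 for ezh2, -0.78 and -1.01 for ezh1, and -1.66 and -1.59 for smarca2. Smaller ratios were found for smarca5 (0.49 and 0.69) and smarca4a (0.52 and 0.57), which fell short of 1.5-fold in both fins or in 1. The H3 lysine 27 demethylase gene kdm6bb was at 27.1 and 53.2 CPM in wild type (0.97) but at 46.1 and 45.2 CPM in the deletion (-0.03). The leukocyte markers summed to 3630 CPM in the wild type and 5220 CPM in the deletion at 0 dpa, and to 996 and 1190 CPM at 2 dpa. From 0 to 2 dpa the cell cycle genes went from 736 to 2420 CPM in wild type and from 681 to 2550 CPM in the deletion. The fibroblast markers went from 15900 to 36900 and from 13900 to 34100 CPM, and the epidermis markers from 117000 to 83600 and from 98300 to 88000 CPM. The part of any of these lists in the 2 dpa ratios was not tested.

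**Figure D5:**
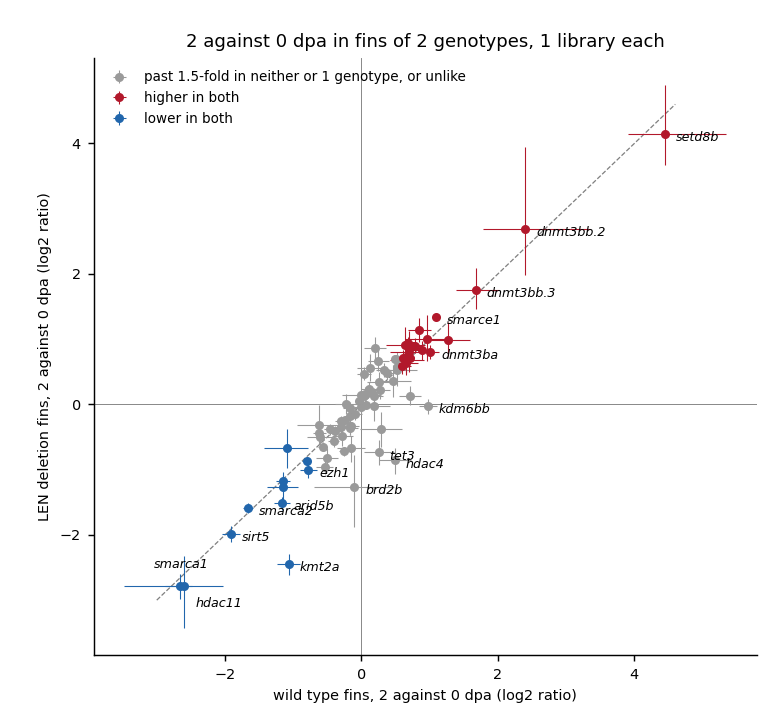
Points give the log2 CPM ratio of 2 to 0 dpa in wild-type (x) and LEN deletion (y) fins for the 83 chromatin genes with enough counts, with 95% counting intervals and 1 library a group. The 20 genes higher and the 11 lower by at least 1.5-fold in both genotypes are coloured, with setd8b at 4.45 and 4.14 and smarca1 at -2.67 and -2.78.

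The LEN deletion itself was set against wild type at both days. Only hdac11 was at least 1.5-fold higher in the deletion at both 0 and 2 dpa, and no chromatin gene was lower, beside 0.85% and 0.527% of all genes. Its log2 ratio was 0.89 (0.57 to 1.24) at 0 dpa, at 230 against 113 counts, and 0.70 (-0.08 to 1.64) at 2 dpa, at 33 against 20 counts, an interval that includes 0. At 2-fold no chromatin gene met the measure, beside 0.166% of all genes higher and 0.111% lower. At 0 dpa alone the deletion library was at least 1.5-fold higher for 8 of 83 chromatin genes and lower for 1, beside 6.02% and 3.54% of all genes. Besides hdac11 these were kmt2a (1.17, 73.8 against 32.9 CPM), hdac4 (1.13, 21.5 against 9.81 CPM), brd2b (0.82), tet3 (0.79), arid5b (0.77), kdm6bb (0.76) and dnmt3aa (0.61, interval 0.33 to 0.92). The lower gene was dnmt3bb.2 (-0.66, interval -2.00 to 0.42), at 11 against 17 counts. At 2 dpa alone the same measure took in only hdac11, which was higher, beside 2.17% of all genes higher and 2.18% lower, and kmt2a and hdac4 both had a log2 ratio of -0.22. These 0 dpa values come from 1 library against 1, and the fish of that library cannot be told apart from the deletion.

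Genes outside the name rule that work with these families were read from lists of partners. The shares of all genes called, against which their counts are to be read, were 32.5% higher and 33.0% lower in batch 1, 42.0% and 39.9% in batch 2 and 27.8% and 26.2% in fibroblasts. Counts given with library size alone are to be read against that scaling instead. Under it 5699 of all 11912 tested genes rose and 2145 fell in batch 1. In fibroblasts 4519 of 12011 rose and 2154 fell. A list of partners of BAF and ISWI remodellers also held hells and atrx, which encode remodellers of their own. Of its 16 tested genes 12 rose and 1 fell in batch 1, 1 rose and 12 fell in batch 2, and 10 rose in fibroblasts. Among them actl6a, an actin-like BAF subunit gene, changed by 1.88 ± 0.13 in batch 1 (edgeR adjusted p = 2.37e-06), and hells, which encodes a helicase needed for DNA methylation in mammals, by 1.94 ± 0.18 (edgeR adjusted p = 1.97e-05). Of 11 COMPASS partners 8 rose in batch 1 and 9 fell in batch 2, among them dpy30 (1.15 ± 0.17 in batch 1, edgeR adjusted p = 0.00024), while in fibroblasts 3 rose and 1 fell. Of the histone chaperones 11 of 18 rose and 1 fell in batch 1, 2 rose and 14 fell in batch 2, and 6 of 19 rose and 1 fell in fibroblasts. The chaperone gene of replication, chaf1a, rose by 2.43 ± 0.13 in batch 1 (edgeR adjusted p = 6.44e-07). Subunits of INO80 and SRCAP rose or fell in numbers of 8 and 4 of 18, 4 and 11, and 7 and 4 in the same order of comparisons.

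Polycomb partners numbered 14 higher and 8 lower of 28 in batch 1, 7 and 12 in batch 2, and 6 and 10 in fibroblasts, where with library size alone 11 were higher and 8 lower. The chromobox gene cbx7a fell by 3.09 ± 0.20 in batch 1 (edgeR adjusted p = 3.7e-06) and rbbp4, shared by PRC2 and NuRD, rose by 1.92 ± 0.16 (edgeR adjusted p = 8.59e-06). DNA methylation partners were 2 higher and 5 lower of 10 in batch 1, 6 and 2 in batch 2, and 3 and 5 of 11 in fibroblasts (4 and 3 with library size alone). Among them uhrf1, which recruits Dnmt1, rose by 1.80 ± 0.13 in batch 1 (edgeR adjusted p = 4.36e-06) and gadd45ba fell by 3.61 ± 0.43 (edgeR adjusted p = 0.00132). Heterochromatin genes were 5 higher and 1 lower of 8 in batch 1, 2 and 6 of 9 in batch 2, and 2 and 1 of 8 in fibroblasts. Further lysine methyltransferases were 6 and 5 of 18 in batch 1, near the shares of all genes, 9 and 5 of 18 in batch 2, and 4 and 2 of 17 in fibroblasts, with suv39h1b, an H3 lysine 9 methyltransferase gene, at 2.16 ± 0.16 in batch 1 (edgeR adjusted p = 4.36e-06).

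A list of acetyltransferases and associated subunits, among them ing and tada genes, had 6 higher and 8 lower of 23 in batch 1 (11 and 3 with library size alone). It had 9 and 8 in batch 2, and 7 and 4 in fibroblasts. The gene kat2b fell by 2.1 ± 0.19 in batch 1 (edgeR adjusted p = 1.49e-05) and rose by 2.92 ± 0.17 in batch 2 (edgeR adjusted p = 3.28e-07). Partners of the deacetylases were 8 and 6 of 21, 5 and 12, and 4 and 4 (9 and 1 with library size alone), with the corepressor gene rcor2 at 3.30 ± 0.32 in batch 1 (edgeR adjusted p = 5.81e-05). A list of demethylase-related genes outside the kdm symbols held jmjd4, jmjd6, jmjd7, phf2, phf8, zgc:162967, minal, hif1an and hspbap1. Not all of them encode demethylases. Of these 9, 1 rose and 4 fell in batch 1, 5 and 4 in batch 2, and 2 and 2 in fibroblasts (3 and 1 with library size alone). With library size alone the 1 called in batch 1 rose.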

How the data were processed

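The deposited files held raw HTSeq counts per gene for each of 18 RNA-seq libraries, made from a stranded mRNA kit per the labels' protocols. The submitters' processing notes name Trim Galore 0.4.1 and 0.6.4, TopHat2 2.1.1, HTSeq 1.6.1 and the genome build danRer10, while the sources used here name neither the gene annotation nor the strand setting. Reads assigned to no feature (26.5 to 39.0% of each library) or to several (0.246 to 0.645%) were left out of library sizes. The 18 accessibility samples were not analysed here.

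Each comparison was fitted on its own groups with edgeR 4.0.16 in R 4.3.3 (TMM, filterByExpr, robust quasi-likelihood F test, two-sided), with Benjamini-Hochberg adjustment over all genes tested and a threshold of 0.05. The fibroblast and batch 1 fins were fitted together to test the difference of their responses. CPM were scaled by TMM within each comparison's libraries, and marker sums and levels on the common scale by TMM over all 18 libraries. Single libraries were compared by log2 CPM ratios with a prior count of 2 and exact conditional 95% intervals, without a test. The steps were tested on simulated data. Alternatives were RLE scaling, library size alone, no expression filter, DESeq2 1.42.0, all 6 replicated groups in 1 fit, replicate blocks and leaving out each library.

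Genes are named by rule: in each replicated comparison the 8 called members with the largest change in each direction (5 for the difference) with a mean of at least 2 CPM, the pairs of duplicates called in opposite directions, and a core list. Other genes, and the pairs of ATPase and catalytic genes, were chosen after their values were seen. The members and all gene lists were chosen with earlier results of these data known. One member enters the counts but its values are not reported here. Counts of near-identical duplicates depend on how shared reads were assigned.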

Additional observations from a re-analysis of the deposited data

Results flagged for a closer look

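The response at 4 against 0 dpa differed between fibroblasts and whole fins, by edgeR's test of the difference itself, for the 10 chromatin genes named for it, with values given as fibroblast minus fin on the log2 scale. It was higher in fibroblasts for sirt5 (1.54), prmt2 (1.27), setd1ba (1.00), kdm5ba (0.889) and sirt3 (0.799). The sirt3 difference was not called with RLE scaling, without the expression filter, with DESeq2, in the block fit or without any 1 library. Those of prmt2, setd1ba and kdm5ba were also lost when certain libraries were left out, as given above. With library size alone only the sirt5 increase was called. It was lower in fibroblasts for smarcd3b (-2.41), dnmt3bb.1 (-1.97), arid3c (-1.95), brd2a (-1.67) and ezh2 (-1.50). The summed heat shock and dissociation-response genes also differed, at 154000 to 202000 CPM in 0 dpa fibroblasts, 41800 to 41900 CPM in 4 dpa fibroblasts and 5260 to 7550 CPM in batch 1 fins, and their part in these differences was not tested.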

How the results depend on the processing

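With library size alone, 10 chromatin genes fell in batch 1, 37 rose and 11 fell in fibroblasts, and 1 response was higher in fibroblasts than in fins. Over all genes 2145 of 11912 then fell in batch 1, and 4519 rose and 2154 fell of 12011 in fibroblasts. The response was higher in fibroblasts for 1489 of 12442 genes. Under that scaling arid2 (0.00297), arid4a (0.0557), chd8 (0.049), hdac4 (0.122) and kdm7ab (0.0574), called lower in batch 1 with TMM, had log2 fold changes above 0. The cause was not tested. Leaving out 1 library at a time, 14 to 30 genes rose and 7 to 24 fell in fibroblasts, and the response was higher in fibroblasts for 1 to 7 genes and lower for 11 to 23. With all 6 replicated groups in 1 fit it was lower for 26. Leaving out either 4 dpa fibroblast library also lowered the number of calls over all genes in fibroblasts. At 2-fold, 4 genes were higher at 2 dpa, beside 10.2% of all genes, and 0 in the LEN deletion, beside 0.166%. The replicate block gave 34 higher and 24 lower calls in batch 1, 24 and 46 in batch 2, 21 and 18 in fibroblasts and 6 and 14 for the difference. Deviations of samples with the same replicate number correlated at 0.016 in batch 1, -0.132, -0.0922 and 0.0866 in batch 2 and 0.0817 in fibroblasts. Those of unlike numbers ran from -0.146 to 0.227 in batch 2. The main fits did not pair samples by number, and these correlations cannot show whether samples were collected together. Of the calls, 39 of 58 in batch 1, 65 of 71 in batch 2, 20 of 43 in fibroblasts and 12 of 22 differences were kept under every alternative run. With 2 to 3 libraries a group, changes of low-count genes such as dnmt3bb.2 rest on few reads.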
